A study of Homo sapiens with 10 samples.

Results

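The 34 genes described here encode enzymes that make, interconvert or salvage purine, pyrimidine and deoxynucleotide building blocks, and a transporter that imports nucleosides. They were found by current or older gene symbol among the 60623 Ensembl gene IDs of the count tables, and each symbol matched 1 ID. All 34 passed the filter on low counts and so stood among the 18450 genes tested. Messenger RNA was sequenced in A375, an established BRAF-mutant human melanoma line, 72 h after transfection with small interfering RNA (siRNA), to ask what part PHF10 plays in gene activation by MYC. PHF10 is a subunit of the chromatin remodelling complex PBAF, and MYC is a transcription factor that drives growth genes. Experiment 1 comprised 4 libraries of PHF10 knockdown and 2 of its control. Experiment 2 comprised 2 libraries that the labels call MYC knockdown and 2 of its own control. For the controls the labels conflict, since the protocol names a control siRNA and the siRNA field gives no treatment. Both knockdowns were made in this line only, and no label states that replicates were separate cultures, so p-values reflect the spread of these libraries alone, which may be technical.

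Cells build nucleotides along several connected routes. The sugar donor PRPP feeds the purine ring, which is closed to give IMP and then turned into AMP or GMP, while the pyrimidine ring is made first and joined to PRPP afterwards. Ribonucleotide reductase converts the resulting diphosphates to deoxynucleotides for DNA, thymidylate synthase makes the thymine nucleotide with a folate cofactor, and salvage kinases and transferases recycle free nucleosides and bases. Many of these genes are known as targets of MYC in dividing cells, and those of the deoxynucleotide branch are known to be used mostly in S phase.

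Depth and library structure bear on every value below. Reads assigned to genes numbered 20.5 to 27.0 M per library in experiment 1 and 30.01 to 38.4 M in experiment 2. PHF10 mRNA was 15.1 to 17.96 CPM (read counts per 1 M reads in genes, scaled by TMM) in its own knockdown, against 36.6 and 40.1 CPM in the controls. In experiment 2 PHF10 mRNA was 124 and 125 CPM in controls and 124 and 119 CPM in MYC-labelled knockdown libraries. Controls of experiment 2 thus started from a higher PHF10 level than those of experiment 1 (log2 fold change 1.70, edgeR adjusted p = 0.00012). MYC mRNA was 16.7 and 13.3 CPM in MYC-labelled knockdown libraries, against 14.9 and 26.5 CPM in their controls (adjusted p = 0.688). The groups overlapped, so every direction drawn from that comparison rests on the labels. In experiment 1 MYC mRNA was 12.9, 9.69, 14.6 and 22.0 CPM after PHF10 knockdown, against 20.2 and 32.1 CPM in controls. These groups overlapped as well (log2 fold change −0.82, edgeR adjusted p = 0.174). In experiment 1 the mean log2 CPM of 24 type I interferon genes was 7.78 and 7.53 in PHF10 knockdown replicates 1 and 2 and 8.29 in control replicate 1, but 3.24, 4.71 and 4.66 in PHF10 knockdown replicates 3 and 4 and control replicate 2. The first 3 of these libraries also had more reads outside genes (12.1% to 13.8%, against 9.93% to 10.6% in the other 3). The melanocyte factor SOX10 had 528 to 948 CPM in every library, whereas MLANA and TYR were at or near 0. The summed level of 14 markers of other cell types was 19.3 to 81.4 CPM.

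After PHF10 knockdown the nucleotide synthesis genes were lower as a group. By edgeR's quasi-likelihood test with Benjamini-Hochberg adjustment over all genes (threshold 0.05), 9 of 34 fell and 0 rose, where 3.58% of all genes tested fell and 2.75% rose. The 9 were the PRPP synthetases PRPS1 and PRPS2, PAICS, ADSS2, RRM2, TK1, DCK, UCK2 and the transporter SLC29A1. At an unadjusted p under 0.05, 19 were lower and 0 higher, where 11.5% of all genes were lower. DESeq2 called 13 members lower, with 6.14% of all genes, and limma-voom 8, with 3.51% of all genes. The fold change was negative for 32 of 34 members (47.9% of all genes), and the median log2 fold change was −0.47 for the members and 0.02 for all genes. Every knockdown library lay below both controls for 22 members, against 13.7% of all genes.

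These counts leaned on the controls and on the shared estimate of spread. The count lower was 3 without control replicate 1 and 2 without control replicate 2, fits in which 0.689% and 0.762% of all genes were called lower. It was 5 without any 1 library of experiment 2, where 1.67% to 1.79% of all genes were. It was 7 and 8 without PHF10 knockdown replicates 1 and 2, and 13 and 11 without replicates 3 and 4, where 3.46% to 4.0% of all genes were. Fitted on experiment 1 alone, where the biological coefficient of variation was 26.7% against 21.4% for all libraries, 0 members passed by edgeR and 16 were lower at an unadjusted p under 0.05, and 0.151% of all genes were called lower. The members' median was −0.47 in that fit as well. Among the libraries with high interferon genes (PHF10 knockdown replicates 1 and 2 with control replicate 1) 10 members were lower, where 1.92% of all genes were. Among the others (replicates 3 and 4 with control replicate 2) 9 were lower, where 2.43% of all genes were. The median log2 fold changes in these parts were −0.49 and −0.44, and both fits took their spread partly from experiment 2.

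**Figure D1:**
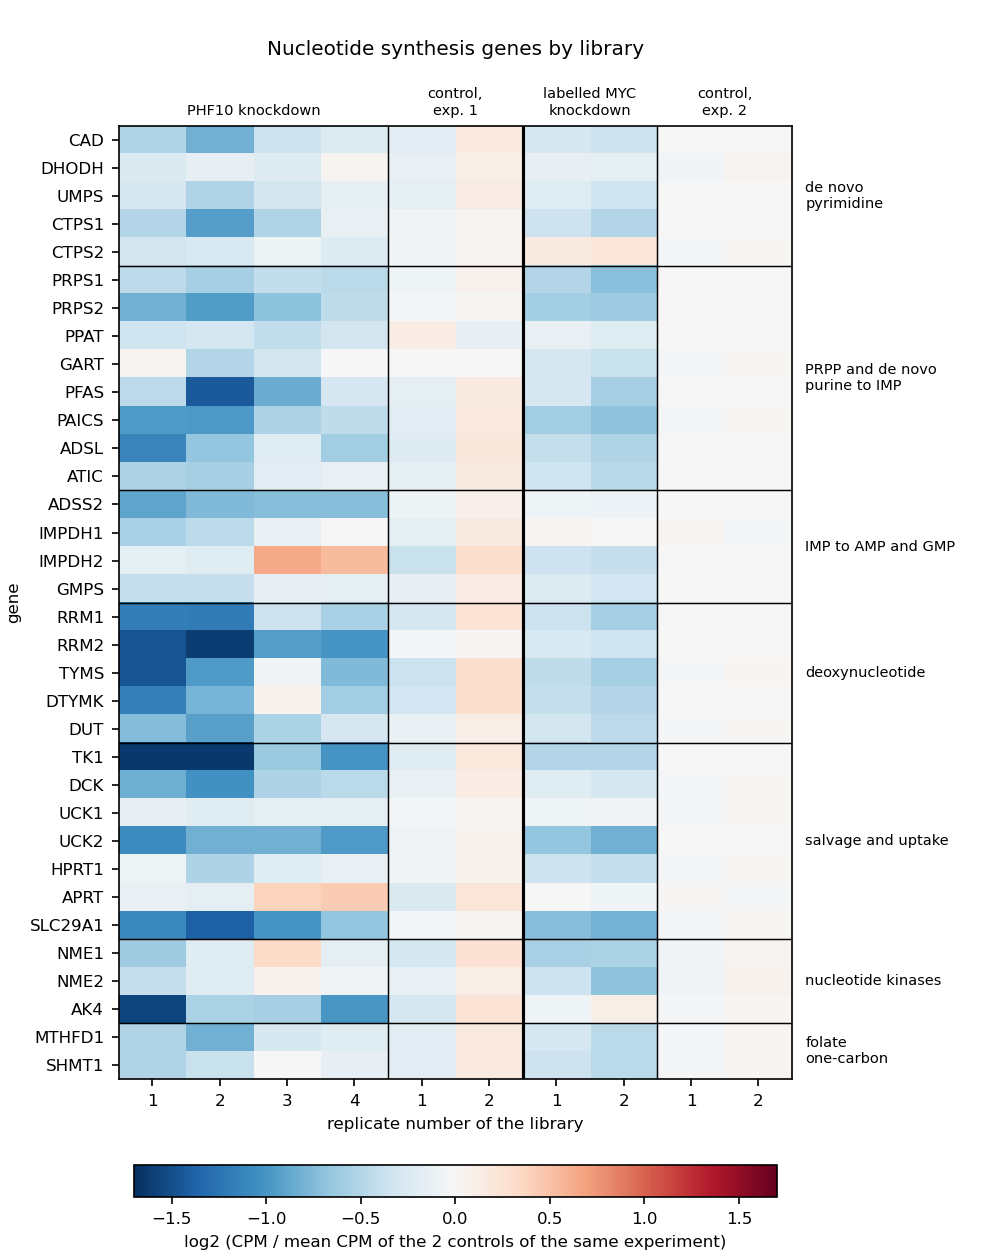
Each cell gives the log2 ratio of a member's CPM in 1 library to its mean in the 2 controls of the same experiment, with genes grouped by branch and libraries by group. Blue cells fill most of the PHF10 knockdown columns, and IMPDH2 and APRT are red in PHF10 knockdown replicates 3 and 4.

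Salvage and uptake held 4 of the 9 genes, and its median log2 fold change was −0.69. UCK2, a kinase that recycles uridine and cytidine, had 47.9, 57.8, 57.8 and 52.1 CPM in PHF10 knockdown libraries, against 97.3 and 106 CPM in controls. All 4 knockdown libraries lay well below both controls, and the log2 fold change was −0.91 (SE 0.11, adjusted p = 0.00305). TK1, the cytosolic thymidine kinase known for its rise in S phase, had 22.4, 22.5, 45.1 and 35.0 CPM in PHF10 knockdown libraries, against 60.7 and 79.0 CPM in controls. Its log2 fold change was −1.16 (SE 0.26, adjusted p = 0.0289), and replicates 1 and 2 were the lowest. SLC29A1, the equilibrative nucleoside transporter, had 18.2, 14.8, 19.3 and 24.7 CPM in PHF10 knockdown libraries, against 38.0 and 39.6 CPM in controls. It fell by 1.01 (SE 0.17, adjusted p = 0.0101). DCK, which phosphorylates deoxycytidine and activates several nucleoside drugs, had 11.4, 9.93, 14.1 and 14.7 CPM in PHF10 knockdown libraries, against 18.5 and 22.0 CPM in controls. It fell by 0.69 (SE 0.16, adjusted p = 0.0357).

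The remaining salvage genes did not pass. UCK1, which acts on the same substrates as UCK2, averaged 40.9 ± 0.72 CPM in PHF10 knockdown (SD, n = 4) and 46.0 ± 1.7 CPM in controls (SD, n = 2), a log2 fold change of −0.17 (adjusted p = 0.280). HPRT1, which salvages hypoxanthine and guanine, averaged 33.3 ± 4.4 CPM in PHF10 knockdown (SD, n = 4) and 38.9 ± 2.2 CPM in controls (SD, n = 2; log2 fold change −0.23, adjusted p = 0.344). APRT, which salvages adenine, had 64.4, 62.4, 90.8 and 94.6 CPM in PHF10 knockdown libraries, against 59.3 and 80.7 CPM in controls (log2 fold change 0.16, adjusted p = 0.695). The 3 libraries with high interferon genes were its 3 lowest. Of the 4 genes that fell, UCK2 passed with any 1 library left out but not with experiment 1 alone (adjusted p = 0.0523). SLC29A1 missed the threshold without control replicate 1 or 2 (0.0645 and 0.0840). TK1 missed it without either control (0.0841 and 0.224) or any library of experiment 2 (0.0594 to 0.0596). DCK missed it without PHF10 knockdown replicate 1 (0.0525), either control (0.0943 and 0.263) or any library of experiment 2 (0.0725 to 0.0758).

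Deoxynucleotide synthesis had the most negative median log2 fold change of the 7 branches, −0.71, and 1 of its 5 genes passed. RRM2, the small subunit of ribonucleotide reductase that is known to accumulate in S phase, had 74.4, 67.7, 108 and 103 CPM in PHF10 knockdown libraries, against 203 and 210 CPM in controls. The log2 fold change was −1.23 (SE 0.18, adjusted p = 0.00637). The knockdown libraries did not approach the controls, but RRM2 missed the threshold without control replicate 2 (0.0572) and with experiment 1 alone (0.0627). An annotated neighbour, AC007240.1, covers 20.2% of the RRM2 exons on the same strand, so some reads could not be assigned.

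RRM1, the large subunit of the same enzyme, had 46.2, 45.6, 82.0 and 71.2 CPM in PHF10 knockdown libraries, against 85.8 and 123 CPM in controls. Its log2 fold change of −0.77 (SE 0.24) did not pass by edgeR (adjusted p = 0.0956). DUT, which removes dUTP and supplies dUMP, averaged 59.7 ± 11 CPM in PHF10 knockdown (SD, n = 4) and 90.7 ± 10 CPM in controls (SD, n = 2), a log2 fold change of −0.60 (adjusted p = 0.0561). RRM1 and DUT each passed by DESeq2 but not by limma-voom. TYMS, thymidylate synthase, had 66.6, 94.6, 178 and 110 CPM in PHF10 knockdown libraries, against 143 and 226 CPM in controls (log2 fold change −0.71, adjusted p = 0.222). Its groups overlapped, and replicate 3 alone exceeded a control. DTYMK, which phosphorylates dTMP, overlapped in the same way (log2 fold change −0.55, adjusted p = 0.290).

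Genes of DNA replication fell alongside this branch. Of 35 S phase replication genes, 27 fell after PHF10 knockdown, where 3.58% of all genes did. All 35 had a negative fold change (47.9% of all genes), with a median of −0.94, against 0.02 for all genes. Their mean log2 CPM was 4.31, 4.32, 4.83 and 4.65 in PHF10 knockdown libraries, against 5.42 and 5.53 in controls. How far a smaller share of cells in S phase and less mRNA per cell each enter the members' values cannot be told apart in bulk RNA, and the part of the S phase genes in them was not tested.

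In the purine route to IMP 3 of 8 genes fell and all 8 had a negative fold change, with a median of −0.54. PRPS2, which makes PRPP, had 43.9, 40.1, 47.6 and 57.5 CPM in PHF10 knockdown libraries, against 76.4 and 78.3 CPM in controls. Its log2 fold change was −0.71 (SE 0.13, adjusted p = 0.0155). PRPS1, its isozyme, had 40.3, 37.1, 41.3 and 40.2 CPM in PHF10 knockdown libraries, against 52.4 and 57.6 CPM in controls. It fell by 0.47 (SE 0.10, adjusted p = 0.0260), with the smallest SE of the 3. By edgeR it missed the threshold without a filter on low counts (0.0643) and with the replicate number as a block (0.0816). PAICS, a bifunctional enzyme of the middle of the route, had 167, 165, 226 and 240 CPM in PHF10 knockdown libraries, against 285 and 362 CPM in controls. It fell by 0.70 (SE 0.18) and lay close to the threshold (adjusted p = 0.0476). PAICS missed the threshold by limma-voom (0.0504) and by edgeR with upper-quartile factors (0.0521) or unstranded counts (0.0543).

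The other 5 genes of that route were not past the threshold by edgeR, and of them only PPAT passed by DESeq2. PPAT, which commits PRPP to the purine ring, averaged 45.9 ± 1.7 CPM in PHF10 knockdown (SD, n = 4) and 58.1 ± 7.5 CPM in controls (SD, n = 2), a log2 fold change of −0.34 (adjusted p = 0.0801). PFAS had 89.8, 45.1, 67.7 and 100.0 CPM in PHF10 knockdown libraries, against 108 and 135 CPM in controls (log2 fold change −0.69, adjusted p = 0.153). PFAS acts between steps of GART in building the ring, and its replicate 2 was the lowest library. ADSL, which acts in ring synthesis and in making AMP, had a log2 fold change of −0.61 (adjusted p = 0.134), and a neighbour covers 18.9% of its exons on the same strand. ATIC, which closes the ring, and GART, a trifunctional enzyme, had −0.33 (adjusted p = 0.234) and −0.17 (adjusted p = 0.568), and both overlapped between groups. PRPS2 missed the threshold without control replicate 1 or 2 (0.0883 and 0.117) and in the part with low interferon genes (0.0597). PRPS1 missed it without either control (0.0896 and 0.214), without any library of experiment 2 (0.0532 to 0.0679) and in each part of the split (0.149 and 0.0706). PAICS missed it without PHF10 knockdown replicates 1 or 2 (0.0634 and 0.0730), either control (0.0929 and 0.328) or any library of experiment 2 (0.0922 to 0.0940).

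Of the 4 genes that turn IMP into AMP or GMP 1 fell. ADSS2, adenylosuccinate synthase, which takes the first step to AMP, had 67.2, 74.5, 75.7 and 75.7 CPM in PHF10 knockdown libraries, against 118 and 132 CPM in controls. It fell by 0.77 (SE 0.10, adjusted p = 0.00377), and it passed with any 1 library left out and in both parts of the interferon split, but not with experiment 1 alone (0.0593). IMPDH2, the main enzyme of the first step to GMP in dividing cells, had 317, 308, 556 and 515 CPM in PHF10 knockdown libraries, against 274 and 438 CPM in controls. Its log2 fold change of 0.25 (SE 0.28, adjusted p = 0.644) was the highest of the 34, and the 3 libraries with high interferon genes were its 3 lowest. Without control replicate 1 it was −0.06 (adjusted p = 0.945). Within each part of the split the knockdown libraries lay above their control, with log2 fold changes of 0.17 and 0.29 that did not pass (adjusted p = 0.409 and 0.118). IMPDH1, its isozyme, had −0.27 (adjusted p = 0.366), and GMPS, which completes GMP, had −0.27 (adjusted p = 0.232).

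Of the 5 genes of pyrimidine synthesis 0 passed by edgeR, although all had a negative fold change, with 3 at an unadjusted p under 0.05. By DESeq2 and limma-voom 0 passed as well, and without a filter on low counts 1 did, CTPS1. CAD, the trifunctional enzyme that starts the route and a classical MYC target, had 148, 120, 164 and 180 CPM in PHF10 knockdown libraries, against 185 and 238 CPM in controls. All 4 knockdown libraries lay below both controls, with −0.47 as log2 fold change (SE 0.16, adjusted p = 0.125). CTPS1, which makes CTP, had −0.49 (adjusted p = 0.145), and UMPS, which completes UMP, had −0.31 (adjusted p = 0.178). CTPS2 and the mitochondrial enzyme DHODH had −0.22 (adjusted p = 0.233) and −0.13 (adjusted p = 0.569).

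Of the 3 nucleotide kinases and the 2 folate enzymes 0 passed by edgeR, with 1 of each lower at an unadjusted p under 0.05. AK4 passed by DESeq2. AK4, a mitochondrial adenylate kinase, had 10.1, 20.4, 19.97 and 14.9 CPM in PHF10 knockdown libraries, against 24.3 and 35.0 CPM in controls (log2 fold change −0.86, SE 0.26, adjusted p = 0.0813). NME1 and NME2 are nearly identical nucleoside diphosphate kinases that share exons with a joint NME1-NME2 annotation, so their counts are uncertain. Their log2 fold changes were −0.12 (adjusted p = 0.802) and −0.14 (adjusted p = 0.721). MTHFD1 and SHMT1, which supply folate units for the purine ring and thymidylate, had −0.43 (adjusted p = 0.173) and −0.24 (adjusted p = 0.396).

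**Figure D2:**
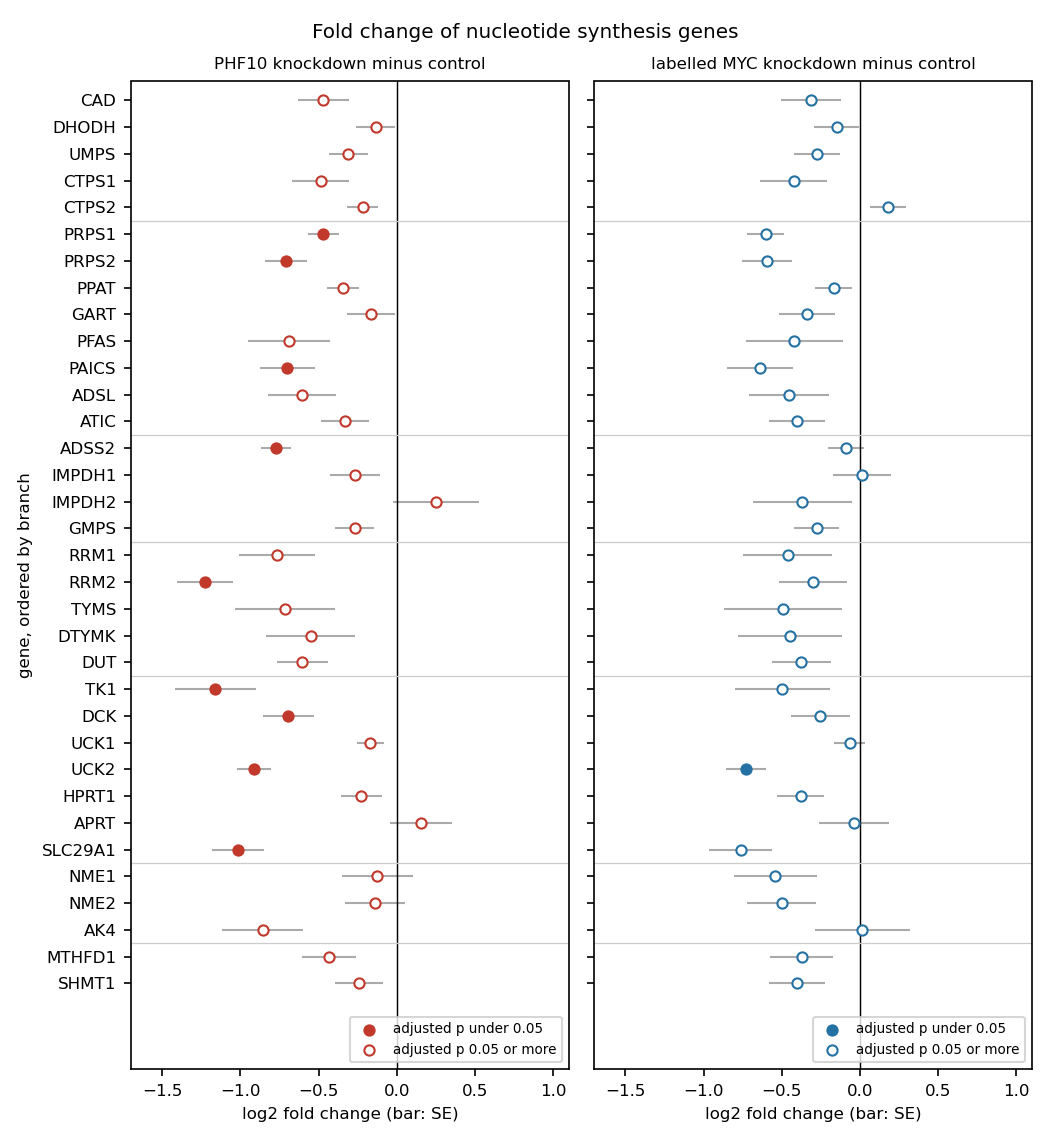
Points are log2 fold changes with SE bars (edgeR, 10 libraries), on the left for PHF10 knockdown minus control and on the right for the libraries labelled MYC knockdown minus control. Filled points passed the adjusted threshold, which 9 members did on the left and UCK2 did on the right.

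The libraries labelled MYC knockdown also gave negative fold changes for most members. In the fit of all libraries 1 of 34 members fell and 0 rose, where 0.211% of all genes fell and 0.282% rose. That gene was UCK2, with 50.7 and 45.4 CPM in MYC-labelled knockdown libraries, against 80.2 and 79.4 CPM in controls (log2 fold change −0.73, SE 0.13, adjusted p = 0.0482). It missed the threshold without PHF10 knockdown replicate 3 or 4 (0.0547 and 0.0639), either control of experiment 1 (0.0690 and 0.0705), either library labelled MYC knockdown (0.289 and 0.548) or either control of experiment 2 (0.447 and 0.468). At an unadjusted p under 0.05, 9 members were lower and 0 higher, where 6.58% of all genes were lower. The fold change was negative for 31 members (51.1% of all genes), and the median was −0.38, against −0.01 for all genes.

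The replicates of experiment 2 lay close together, so that most genes had groups that did not overlap. Both libraries labelled MYC knockdown were below both controls for 30 members, where 36.0% of all genes were. CTPS2 was the 1 member above both controls, as were 33.6% of all genes. With experiment 2 fitted alone, at a biological coefficient of variation of 3.39%, 27 members were lower and 1 higher, where 22.6% of all genes were lower and 21.9% higher. In that fit the 5 largest falls on the log2 scale were SLC29A1 (−0.75, adjusted p = 1.0e-12), UCK2 (−0.72, 3.0e-16), PAICS (−0.63, 5.5e-18), PRPS1 (−0.58, 2.2e-11) and PRPS2 (−0.58, 1.0e-14). The members that did not pass there were DHODH, ADSS2, IMPDH1, UCK1, APRT and AK4.

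Values of these genes show how close the replicates were. PAICS had 251 and 234 CPM in MYC-labelled knockdown libraries, against 372 and 384 CPM in controls. SLC29A1 had 18.5 and 17.6 CPM in MYC-labelled knockdown libraries, against 30.3 and 31.0 CPM in controls. PRPS2 had 63.8 and 62.1 CPM in MYC-labelled knockdown libraries, against 94.2 and 95.7 CPM in controls. All 3 were lower after both knockdowns without overlap.

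PRPS1 had 36.4 and 31.7 CPM in MYC-labelled knockdown libraries, against 51.5 and 51.7 CPM in controls. CAD had 190 and 179 CPM in MYC-labelled knockdown libraries, against 228 and 229 CPM in controls. CTPS2, in contrast, had 37.2 and 38.4 CPM in MYC-labelled knockdown libraries, against 33.0 and 33.7 CPM in controls. ADSS2 had 117 and 115 CPM in MYC-labelled knockdown libraries, against 124 and 122 CPM in controls, with −0.09 (SE 0.11) as log2 fold change. The S phase list had 0 genes called by edgeR in this comparison, and a median of −0.37. At an unadjusted p under 0.05, 10 of its 35 genes were lower, where 6.58% of all genes were.

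**Figure D3:**
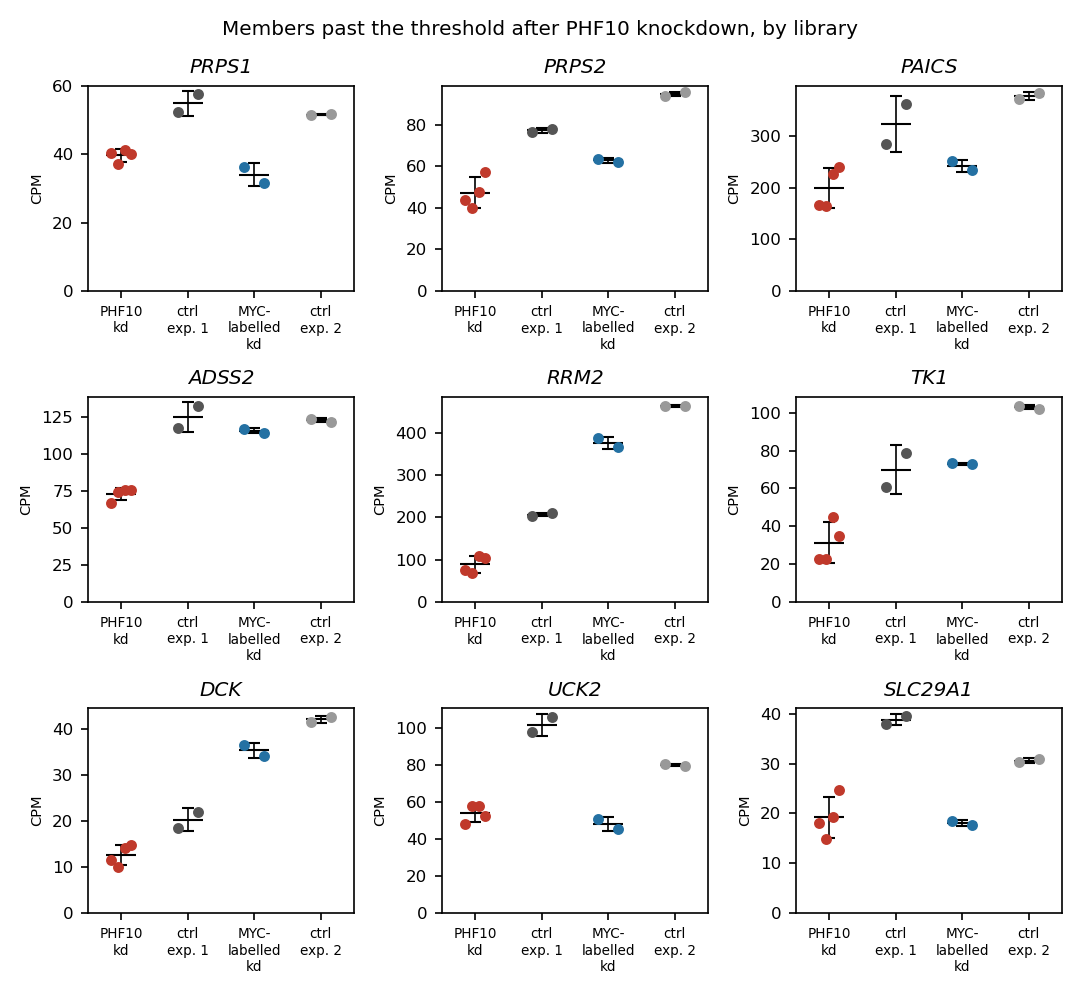
Points give the CPM of each library for the 9 genes that fell after PHF10 knockdown, with the group mean and SD as black bars, and each vertical axis starts at 0. ADSS2 is at 67.2 to 75.7 CPM after PHF10 knockdown and at 115 and 117 CPM in MYC-labelled knockdown libraries.

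The difference between the knockdown effects was tested directly. It passed for 0 of 34 members by edgeR, where 0.385% of all genes were called. At an unadjusted p under 0.05, 3 members had a more negative effect of PHF10 knockdown, where 5.51% of all genes did. By limma-voom 0 passed and by DESeq2 1, ADSS2, where DESeq2 called 1.46% of all genes lower. ADSS2 had the smallest p, with a difference of −0.69 (SE 0.15, unadjusted p = 0.00113, adjusted p = 0.0845). RRM2 had a difference of −0.92 (SE 0.28, adjusted p = 0.216) and CTPS2 had −0.40 (SE 0.15, adjusted p = 0.338). For UCK2 it was −0.18 (SE 0.17) and for PAICS −0.06 (SE 0.28). A p that missed the threshold does not show that the effects were alike. In all, 20 members lay below both controls without overlap in both experiments, against 8.18% of all genes.

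The controls themselves differed between the experiments, and experiment and group cannot be told apart there. Of the 34 members 2 were higher and 1 lower in the controls of experiment 2, where 8.05% and 6.6% of all genes were. The median log2 fold change was −0.03 for the members and −0.02 for all genes. RRM2 had 465 and 463 CPM in controls of experiment 2, against 203 and 210 CPM in controls of experiment 1 (log2 fold change 1.17, SE 0.22, adjusted p = 0.00860). DCK had 41.4 and 42.6 CPM in controls of experiment 2, against 18.5 and 22.0 CPM in controls of experiment 1 (log2 fold change 1.05, SE 0.19, adjusted p = 0.00742). AK4 was lower, with 13.2 and 13.8 CPM in controls of experiment 2, against 24.3 and 35.0 CPM in controls of experiment 1 (log2 fold change −1.14, SE 0.31, adjusted p = 0.0365). In this comparison 8.05% of all genes were higher and 6.6% lower, that is 1485 and 1217 genes, or 1028 and 1690 with upper-quartile scaling, which moved the median of all genes to −0.13. All 35 S phase genes were higher in the controls of experiment 2 without overlap, as were 34.5% of all genes, and 9 of the 35 passed. RRM2 and DCK each missed the threshold without control replicate 1 of experiment 1 (0.0617 and 0.0640) and without either control of experiment 2 (0.0559 to 0.0634). AK4 missed it without either control of experiment 1 (0.0627 and 0.179), either library labelled MYC knockdown (0.0664) or either control of experiment 2 (0.198 and 0.182).

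Levels of different genes were compared per kb of exon. IMPDH2 was the most abundant member in all 4 groups, at 153 CPM per kb in PHF10 knockdown and 129 in its controls, and at 134 in the libraries labelled MYC knockdown and 174 in their controls. RRM2 stood at place 14 of 34 in PHF10 knockdown and 6 in its controls, with 16.6 and 38.8 CPM per kb. In the libraries labelled MYC knockdown and in their controls it stood at place 2, with 70.7 and 87.1 CPM per kb. The lowest 3 places in the controls of experiment 2 were those of AK4, NME2 and ADSL, at 1.78, 1.86 and 2.4 CPM per kb. In the other 3 groups ADSL and NME2 held the lowest 2 places, at 1.31 to 2.99 CPM per kb. Other annotations cover 22.9% of the NME2 exons and 18.9% of the ADSL exons on the same strand. Some of their reads could not be assigned, so these places are uncertain as levels of expression.

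In GRCh38 with GENCODE release 29 the genes that fell lie as follows. PRPS1 is on chromosome X from 107628424 to 107651026 and PRPS2 on X from 12791355 to 12824222. On chromosome 4, PAICS spans 56435741 to 56464579 and DCK 70992538 to 71030914. On chromosome 1, ADSS2 spans 244408494 to 244452134 and UCK2 165827531 to 165911618. RRM2 is on chromosome 2 from 10120698 to 10131419, TK1 on 17 from 78174075 to 78187233 and SLC29A1 on 6 from 44219505 to 44234151. Counts are over exons of the whole gene.

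Promoters of the genes that fell were searched for 3 short motifs. RefSeq windows of 250 bases before to 50 bases after an annotated start (GRCh38.p14) were present for 32 of the 34 members, with 50 windows. The E-box CACGTG, the sequence that MYC is known to bind, was in windows of 9 of 32 members (28.1%) and of 8.77% of all genes. An E2F-type motif, TTTNNCGC, was in 6 of 32 (18.8%) and 8.23% of all genes. CCAAT, the NF-Y motif, was in 12 of 32 (37.5%) and 39.7% of all genes. Both strands were searched, no motif contains another, and a match is a description, not a site. Of the 9 genes that fell after PHF10 knockdown 3 had an E-box, 3 the E2F-type motif and 4 CCAAT.

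The stretches below show these matches in the genes that fell, each 30 bases on the gene's own strand with the motif in capitals. PAICS and PPAT are neighbours on opposite strands, and their windows share 1 E-box, printed once from each side. RRM2 is shown 3 times for its CCAAT copies at 123, 93 and 66 bases before the same start, and a match 249 bases before another RRM2 start is not shown.
PAICS E-box: ctggaaagctgtatttgctgCACGTGgaaa
PPAT E-box: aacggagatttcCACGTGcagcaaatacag
DCK E-box: cgccccggccttCACGTGacctggcgtgcg
SLC29A1 E-box: cagtgCACGTGctcccaggtctcagggagg
DCK E2F type: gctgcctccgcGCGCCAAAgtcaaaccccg
PRPS2 E2F type: agccgccgcgcTTTCCCGCtcccgcagcag
ADSS2 E2F type: cgcccctgaccTTTTCCGCtcgcgaggttt
RRM2 CCAAT, farthest: ggcaaggcgcagCCAATgggaagggtcgga
RRM2 CCAAT, middle: ggcatggcacagCCAATgggaagggccggg
RRM2 CCAAT, nearest: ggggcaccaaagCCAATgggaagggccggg
TK1 CCAAT, farther: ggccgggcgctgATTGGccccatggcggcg
TK1 CCAAT, nearer: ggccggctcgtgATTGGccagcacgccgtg
UCK2 CCAAT: ctgcccgcccggATTGGagcagcagcatca
PRPS1 CCAAT: catgctcttcacCCAATacctgagagaatc

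In the same order and on GRCh38.p14 these lie on the plus strand at chr4:56435772-56435801 (PAICS), on the minus strand at chr4:56435780-56435809 (PPAT), and on the plus strand at chr4:70993521-70993550 (DCK), chr6:44219365-44219394 (SLC29A1), chr4:70993659-70993688 (DCK) and chrX:12791389-12791418 (PRPS2). ADSS2 is on the minus strand at chr1:244452137-244452166. The RRM2 stretches are on the plus strand at chr2:10122604-10122633, chr2:10122634-10122663 and chr2:10122661-10122690, and those of TK1 on the minus strand at chr17:78187112-78187141 and chr17:78187081-78187110. UCK2 is at chr1:165827564-165827593 and PRPS1 at chrX:107628342-107628371, both on the plus strand. All are promoter windows, and the shared E-box lies 182 bases before the PPAT start and 40 bases after a PAICS start. PAICS fell after PHF10 knockdown and PPAT did not pass by edgeR. Their log2 fold changes in the libraries labelled MYC knockdown were −0.64 and −0.17, a difference between genes that was not tested. UCK2, which fell in both comparisons, had no exact CACGTG in its window of 300 bases. Whether a motif bears on a fold change was not tested.

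Among 66 other genes of nucleotide metabolism, listed with earlier results known, 58 were tested. After PHF10 knockdown 4 rose (2.75% of all genes) and 1 fell (3.58% of all genes), and the median log2 fold change was 0.01, where that of the members was −0.47. TK2, the mitochondrial thymidine kinase, had 27.9, 27.1, 31.8 and 30.7 CPM in PHF10 knockdown libraries, against 15.6 and 15.3 CPM in controls (log2 fold change 0.93, adjusted p = 0.00305). MTHFD2L, a mitochondrial folate enzyme, rose by 0.87 (adjusted p = 0.00890), AMPD3, an AMP deaminase, by 1.36 (adjusted p = 0.0274) and NME3 by 0.66 (adjusted p = 0.0324). SLC19A1, the reduced folate carrier, fell by 0.68 (adjusted p = 0.0140).

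TK2 passed with any 1 library left out. MTHFD2L missed the threshold without either control of experiment 1 (0.0753 and 0.0833), and SLC19A1 likewise (0.0737 and 0.116). AMPD3 missed it without either of those controls (0.163 and 0.148) or any library of experiment 2 (0.0583 to 0.0596). NME3 missed it without PHF10 knockdown replicates 2, 3 or 4 (0.0516, 0.0520 and 0.0553), either control of experiment 1 (0.218 and 0.101) or any library of experiment 2 (0.0703 to 0.0731). In the libraries labelled MYC knockdown 0 of the 58 passed by edgeR, with 9 lower and 3 higher at an unadjusted p under 0.05, where 6.58% of all genes were lower and 6.62% higher. DESeq2 gave 5 lower and 1 higher, where it called 1.98% of all genes lower and 1.92% higher, and limma-voom gave 0.

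Ratios of related enzymes within a library were compared for 11 pairs chosen after their values were seen, and no test was made. In PHF10 knockdown 6 ratios lay below both controls, 1 above and 4 overlapped. In the libraries labelled MYC knockdown 9 lay below, 1 above and 1 overlapped. Of single genes, 13.7% lay below both controls and 13.4% above in PHF10 knockdown. In the libraries labelled MYC knockdown 36.0% lay below and 33.6% above. No such share was taken over ratios of other gene pairs, so these counts describe the chosen pairs only. TK1 over TK2, cytosolic over mitochondrial thymidine kinase, had log2 ratios of −0.32, −0.27, 0.50 and 0.19 in PHF10 knockdown libraries, against 1.96 and 2.36 in controls. The same ratio was 0.89 and 0.94 in MYC-labelled knockdown libraries, against 1.94 and 1.93 in controls. RRM2 over RRM2B, its p53-inducible counterpart, was 0.24, −0.57, 0.56 and 1.13 in PHF10 knockdown libraries, against 1.63 and 1.74 in controls. UCK2 over UCK1 was lower by 0.75 on average after PHF10 knockdown and by 0.67 in the libraries labelled MYC knockdown. IMPDH2 over IMPDH1 was above both controls after PHF10 knockdown (mean difference 0.51) and below them in the libraries labelled MYC knockdown (mean difference −0.38).

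**Figure D4:**
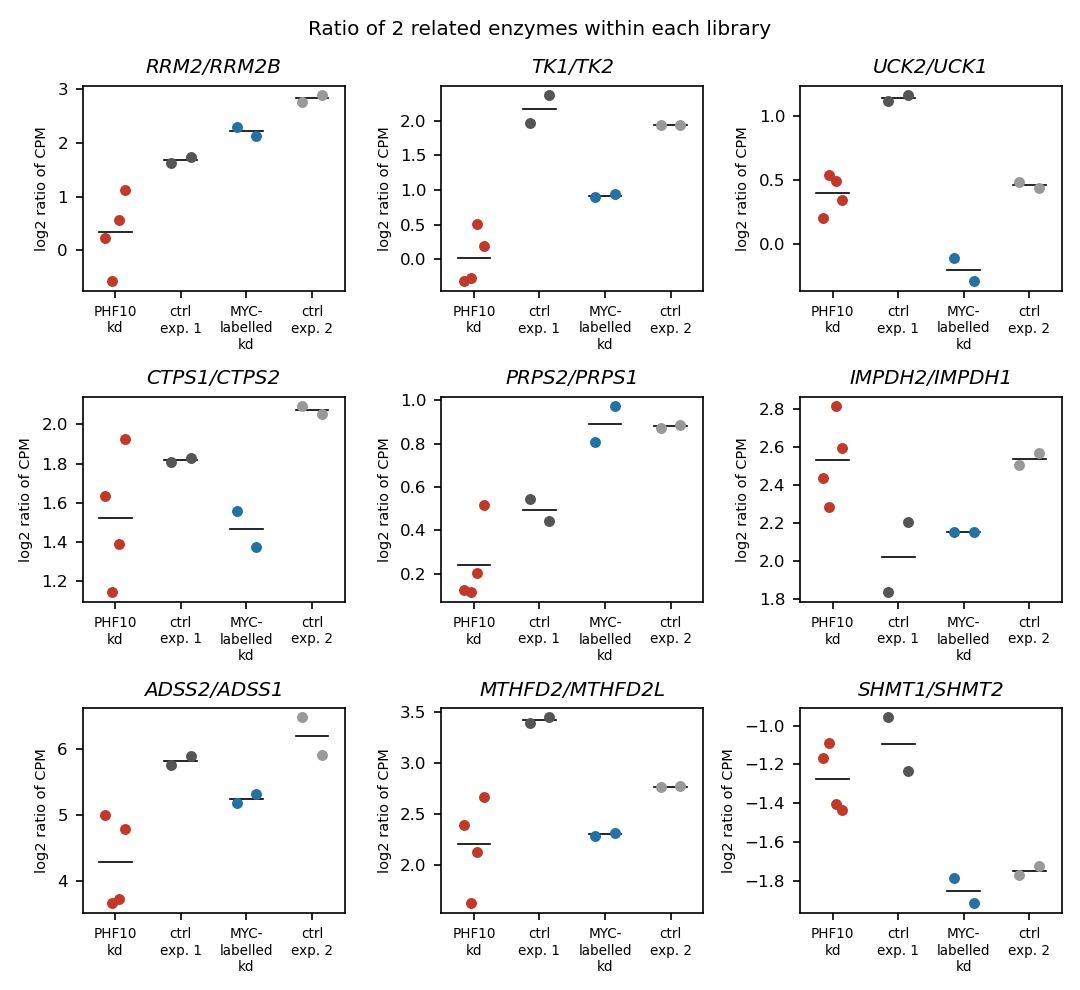
Points give the log2 ratio of the CPM of 2 related enzymes in each library, with the group mean as a line, for 9 of the 11 pairs. TK1/TK2 is at most 0.50 in the 4 PHF10 knockdown libraries and at least 1.93 in the 4 controls.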

How the data were processed

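Poly(A) RNA libraries were made with a directional kit and read as single 100 nt reads, per the labels' protocols. The submitters' processing notes name cutadapt for trimming and STAR, with builds GRCh38.p13 and hg38. Tool versions and the gene annotation: not given in the sources used here. What the authors deposited is raw counts per gene, and the reverse-strand column was used. Summary lines that name no gene (19.1% to 23.6% of a library) stayed out of library sizes.

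Counts were fitted with edgeR 4.0.16 (quasi-likelihood, TMM factors, filterByExpr by group, robust) in R 4.3.3. All 10 libraries entered as 4 group means, with 6 residual degrees of freedom, 18450 genes tested and a Benjamini-Hochberg adjusted p under 0.05 as the threshold; the script was tested on simulated data. CPM values use TMM-scaled library sizes, and a mean log2 CPM uses a prior count of 2. Replicate pairs differed by more than sampling noise (chi-square per gene 2.3 to 144, where noise gives about 1). Gene names came from a table of 60295 IDs, and exons from GENCODE release 29 (58516 IDs). Promoters came from RefSeq (GRCh38.p14). Alternatives were DESeq2 1.42.0, limma-voom (limma 3.58.1), RLE or upper-quartile factors, other filters (none beyond 1 read; 1 CPM in 4 libraries), unstranded counts, each experiment alone, a replicate block, the share of reads outside genes as a covariate, parts of experiment 1, and each library left out in turn. All members were named, with PHF10, MYC and, of the other pathway genes, up to 6 called in each direction; the result of 1 other gene is not reported here; RRM2B, and the no-overlap counts, were added after values were seen. Members and lists were chosen with earlier results of these data known.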

Additional observations from a re-analysis of the deposited data

Results flagged for a closer look

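ADSS2 in PHF10 knockdown replicate 1 stood apart from the other libraries of its group, with 67.2 CPM, against 74.5 to 75.7 CPM in replicates 2 to 4. Its gap to the nearest library was 0.855 of the group's range, above the critical value of Dixon's test for 4 samples. Chance alone marks about 1 in 20 groups in this way. Without that library ADSS2 still passed the threshold.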

How the results depend on the processing

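Over up to 22 alternatives no named gene that had passed changed direction, and 281 of these values kept their side of the threshold while 104 missed it. Members that had not passed could change sign: 3 in each knockdown comparison, 13 in the difference of effects and 12 between controls, and 0 of them passed with the other sign. After PHF10 knockdown these were IMPDH2 (−0.15) and APRT (−0.13) with the replicate number as a block, both also without control replicate 1 (−0.06 each), and NME1 with the covariate (0.01) or without PHF10 knockdown replicate 1 (0.01) or control replicate 2 (0.17). After PHF10 knockdown the members lower numbered 9 in the main fit, 16 without a filter, 0 with experiment 1 alone and 14 with the share of reads outside genes as a covariate, where 3.58%, 3.14%, 0.151% and 6.79% of all genes were lower, and they ranged over 2 to 13 with each library left out. With the replicate number as a block they numbered 14 (2.73% of all genes), and 0 in the libraries labelled MYC knockdown (0 genes in all). Between same-numbered libraries, deviations from group means correlated at 0.48 and −0.30 in experiment 1 and −0.03 in experiment 2. The deviations of 2 controls mirror each other, so these values cannot tell whether the numbers pair the samples. Of all genes, 6.14% were lower by DESeq2, and 2.88% were higher without a filter, 0.129% with experiment 1 alone and 1.98% with the block. Among the other pathway genes, lower and higher counts were 4 lower by DESeq2, 6 and 7 without a filter, 0 and 0 with experiment 1 alone, 3 and 2 with the block, 0 and 2 in the part with high interferon genes, 3 lower in the other part, and 0 to 2 and 1 to 4 with each library left out.

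For the libraries labelled MYC knockdown the members lower numbered 1 in the main fit, 0 with upper-quartile factors or unstranded counts, 4 by DESeq2 (1.98% of all genes), 2 by limma-voom (0.439%), 3 without a filter or with the covariate (1.16% and 1.33%), 27 with 1 higher in experiment 2 alone, and 0 to 2 with each library left out. Of the other pathway genes 5 were lower and 1 higher by DESeq2, 5 and 2 without a filter, 26 and 16 in experiment 2 alone, 3 and 1 with the covariate, and 0 to 1 lower with each library left out. Of all genes, 1.92% were higher by DESeq2, 1.15% without a filter, 21.9% in experiment 2 alone and 1.33% with the covariate. The difference of effects passed for 1 member each by DESeq2, without a filter and with the covariate, but not always for the same gene. It was ADSS2 by DESeq2, RRM2 without a filter and ADSS2 with the covariate, each with a more negative effect of PHF10 knockdown. The shares of all genes called lower there were 1.46%, 0.844% and 0.992%. Between controls, 3 members were lower with upper-quartile factors (9.16% of all genes), 7 with the covariate (7.91%) and 0 with the replicate block (3.23%). Without a filter 4 were higher, where 5.3% of all genes were. With any 1 PHF10 knockdown library left out, 1 member was lower and 2 or 3 higher. In those fits 6.44% to 8.32% of all genes were lower and 7.89% to 10.3% higher. The cause of these shifts was not tested. With 2 libraries in 3 of the 4 groups, a control left out leaves 1 library that is assumed to vary like the others, and counts of members depend on that spread. Every member had 3.06 CPM or more in every library.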

Other observations

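Several genes of nucleotide breakdown that are not among the 34 differed between the controls, where experiment and group cannot be told apart. Of the 58 other pathway genes tested, 8 were higher and 2 lower in the controls of experiment 2 than in those of experiment 1, where 8.05% of all genes were higher and 6.6% lower. The genes named here were chosen after their values were seen. AMPD3, an AMP deaminase, had 13.7 and 13.9 CPM in controls of experiment 2, against 1.58 and 1.82 CPM in controls of experiment 1 (log2 fold change 3.02, adjusted p = 0.000677). The guanine deaminase GDA was higher by 2.67 (adjusted p = 0.00611), and XDH, which makes uric acid, by 1.95 (adjusted p = 0.0305). AMPD3 was thus higher after PHF10 knockdown than in the controls of experiment 1, at 3.08 to 6.48 CPM, but below every library of experiment 2.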
